A study of Junonia coenia with 38 samples.

Results

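Described here are 92 gene models of the buckeye butterfly Junonia coenia whose normalized counts were at least 4 times higher in both sampled stages of the pupal wing than in larval and prepupal wings. They were chosen by their own counts in these libraries, from 19234 models in the table. Counts were first divided by a size factor per library (the median-of-ratios scaling of DESeq), which gives a normalized count, and then averaged over the 6 libraries of a stage. A member had a mean of at least 100 at 72 h after pupation and in the late pupa. The lower of these means was at least 4 times the higher of the 5th instar and prepupal means, and the later means lay within 4-fold of each other. The levels by stage are therefore a description and carry no test. The tests given below are of the difference between hindwing and forewing, which the choice did not use.

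The libraries were made from poly-A selected RNA of the whole wings of caterpillars and pupae raised at about 27C. Per the labels they come from hindwings and forewings of the 5th instar (the last larval stage), the prepupa, the pupa at 72 h and the late pupa, with 3 libraries in each of the 8 groups. One label gives the late stage as 6 days after pupation and another as day 7. No mutant, treatment, strain or sex is labelled for them. The labels do not say how many animals went into a library. The forewing and hindwing libraries that share a stage and a number varied together, and p-values measure the spread between these samples. Both 72 h libraries numbered 3 differed from the other 4 of that stage in many models. Several counts, calls and medians that rest on the 72 h libraries are therefore given with and without them. Ratios of stage means and correlations between members are given with them only. Total counts lay between 5795618 and 21284939 per library. In whole wings, fewer cells of a type and less RNA per cell cannot be told apart.

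Butterfly wings grow as imaginal discs inside the caterpillar and are everted at pupation. In the pupa, precursor cells of the epidermis give rise to scale cells and their sockets, the scale cells extend flattened projections, and cuticle and then pigment are laid down in them. Pulses of the moulting hormone ecdysone, acting through its receptor EcR, time these steps. The series title names EcR and the transcription factor spineless in the chromatin of the metamorphosing wing. The table names each model by contig, first base and last base, in coordinates of an assembly whose build is not given in the sources used here, and the files used here pair no model with a gene name. The models therefore appear by position (contig:first-last), and no function is assigned to any of them. Tissue markers could not be checked for the same reason.

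The 92 members lay on 69 of the 811 contigs and made up 1.63% of the 5658 models with a mean of at least 100 in both later stages. Together they took up 0.0904% to 0.106% of all counts in the 5th instar libraries and 0.0561% to 0.0975% in the prepupal libraries. At 72 h they took up 1.66% to 2.22%, and in the late pupa 1.43% to 1.62%. The 8 members with the highest normalized counts held 59.5% of the members' reads in the later libraries. Normalized counts grow with transcript length as well as abundance, so their order between models is not an order of transcript number.

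**Figure D1:**
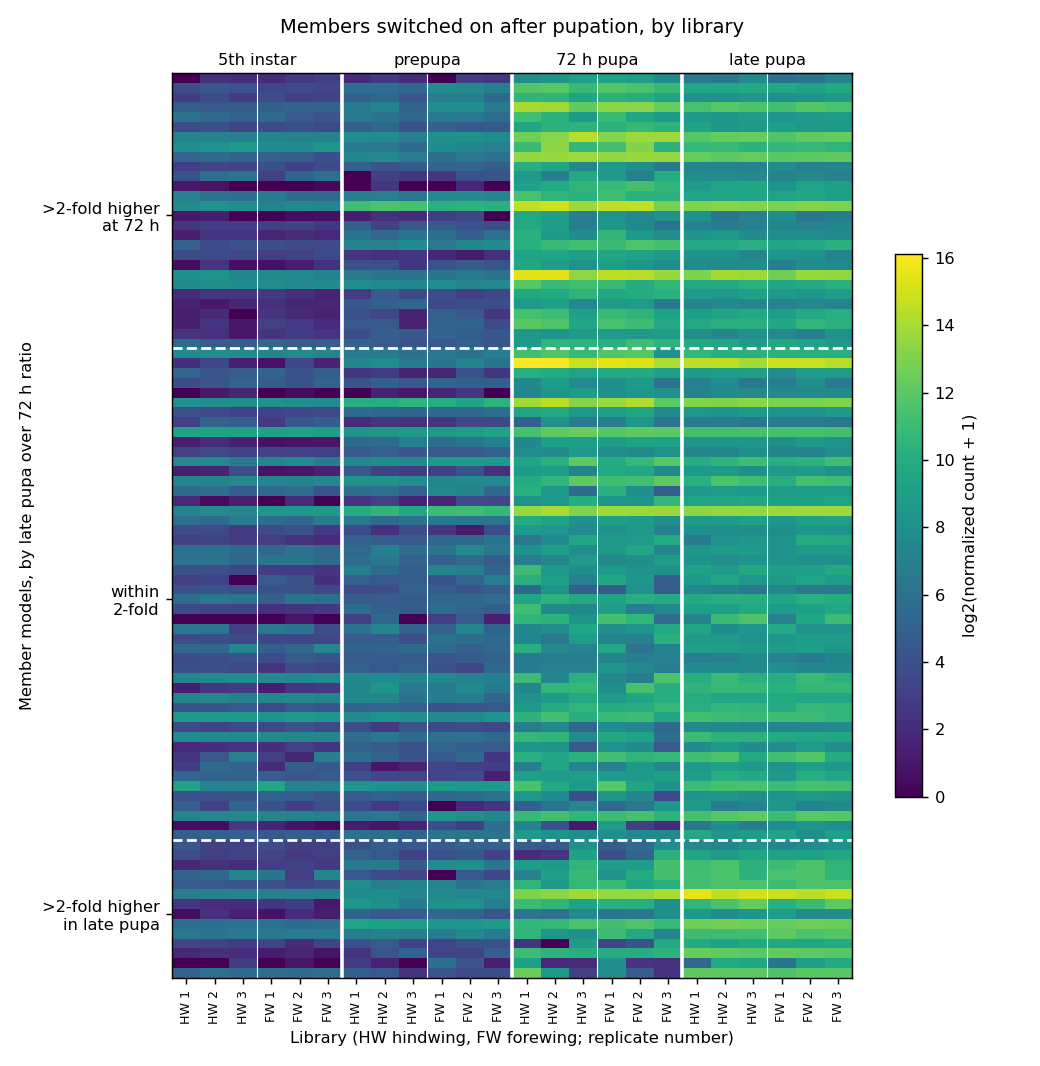
Normalized counts of the 92 members, as log2(normalized count + 1), in the 24 wing libraries (columns; hindwing left of forewing within each stage, replicate numbers 1 to 3). Rows run by the ratio of the late pupal to the 72 h mean, and the dashed lines separate the 28 members over 2-fold higher at 72 h, the 50 within 2-fold and the 14 over 2-fold higher in the late pupa. The change of colour between prepupa and 72 h is what chose the rows, and the patchwork within the 72 h columns entered the choice through the 72 h mean.

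The working name of the group, models switched on only after pupation, fits some members better than others. The ratio of the lower later mean to the higher earlier mean ran from 4.03 to 458 with a median of 8.13. It was 10 or more in 37 members, 50 or more in 10, and under 5 in 20. No member was without reads before pupation, the fewest being 12 reads over the 12 larval and prepupal libraries. In 30 members a larval or prepupal mean already reached 100 or more, and in 6 both earlier means were under 10. Every later library exceeded every earlier one in 69 members (75%), against 3.59% of the 13282 models tested. Without the 72 h libraries numbered 3 it was 77, against 4.74%. That share follows from the choice and supports nothing.

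Just inside the 4-fold limit stood 000250F:181335-205568 at a ratio of 4.03, 000459F:119425-149539 at 4.14 and 000235F:49055-51650 at 4.17. Just outside stood 000108F:423793-432910 at 3.96, 000104F:1223001-1241998 at 3.95 and 000233F:517656-536049 at 3.91. At the limit of 100 on the lower later mean, 000057F:1995093-1999833 at 100.2 and 000250F:181335-205568 at 104 were in, while 000303F:289786-299187 at 97.6 and 000713F:67974-75112 at 91.4 were out. At the 4-fold limit between the later stages, 000615F:36199-38780 at 3.84 and 000001F:4730156-4747825 at 3.75 were in, while 000053F:1180706-1182874 at 4.05 and 000091F:985698-987092 at 4.10 were out. The members thus end where a continuous range of models goes on.

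The widest step belonged to 000016F:3443191-3447446. Its normalized counts in hindwings, by replicate number, were 1.03, 0.787 and 0 in larvae, 0, 4.85 and 0 in prepupae, 609, 896 and 1495 at 72 h and 458, 677 and 719.9 in late pupae. In forewings the values were 0, 0 and 0.289, then 0, 2.45 and 0, then 1762, 2686 and 1497, and 329, 617 and 547 in the same stage order. All 12 later libraries stood far above all 12 earlier ones, at a ratio of 458 that rests on 12 earlier reads. On the same contig 000016F:3395818-3400241 stood at means of 0.651, 1.70, 314 and 185 over the 4 stages, a ratio of 109 on 16 earlier reads. Next by this ratio, apart from 000077F:1778459-1783827, were 000046F:968829-984027 at 101 and 000001F:4500390-4507013 at 92.3.

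The member with the highest counts, 000077F:1778459-1783827, combined a high ratio (176) with a high level. Larval hindwings had 3.61, 10.2 and 1.70 normalized counts and larval forewings 0.721, 9.68 and 2.02. Prepupal hindwings had 176, 245 and 87.9 and prepupal forewings 71.1, 155 and 75.3. At 72 h the hindwings had 71385, 66385 and 28209.8 and the forewings 44774, 38580.0 and 17705, and in the late pupa the hindwings had 23373, 24457 and 15399 and the forewings 29925, 27409 and 21904. The groups of earlier and later libraries did not overlap, and replicate 3 was the lowest of its group in both wings at both later stages. It was the source of 0.130% to 0.477% of all counts in the later libraries.

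Other members of high count differed in how quiet they were before pupation. Stage means of 000026F:1975420-1981104 were 128, 202, 12392 and 30945 in stage order, so that it alone among the 8 highest had its higher mean in the late pupa. Those of 000173F:84151-92399 were 213, 77.4, 25394 and 11073, with less in the prepupa than in the larva. The spans of both overlap that of another model, and their counts are uncertain for that reason. In contrast 000010F:146921-162529 already had a prepupal mean of 1965, against 20846 at 72 h. Its late pupal libraries were lower, from 7431 to 9573, and they set its ratio, which lay near the 4-fold limit. Prepupal means were also high in 000141F:530457-540937 and 000135F:1335691-1342474, at 1586 and 1089 against 72 h means of 13106 and 13683. Levels of 000006F:643257-655210 were 136, 233, 12785 and 4504 and those of 000019F:8067-22751 were 32.4, 118, 12249 and 4529, both with their peak at 72 h.

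**Figure D2:**
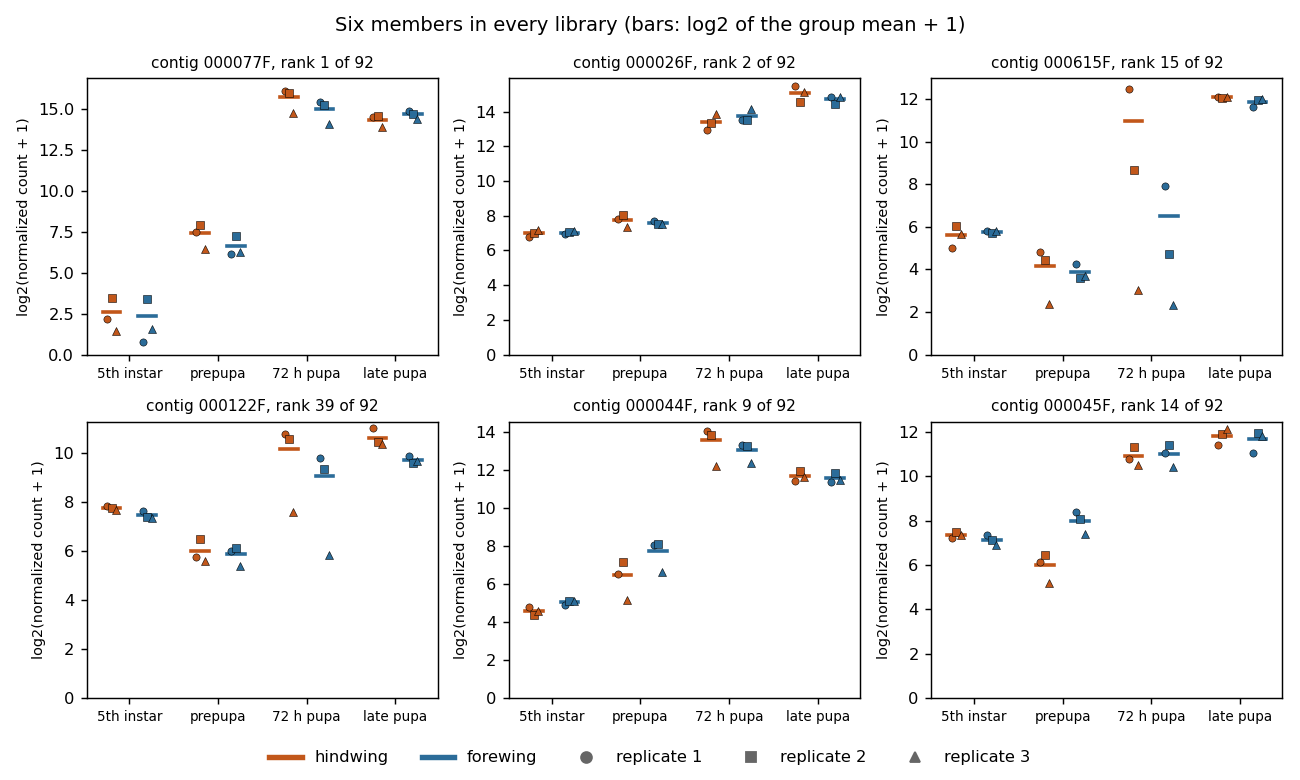
Normalized counts of 6 members in every library, as log2(normalized count + 1) by stage; symbols mark the replicate number, colours the wing, and bars the log2 of the group mean plus 1. The panels show, by contig, the member of highest count (000077F), a late pupal maximum (000026F), a 72 h group that runs from below the larval to above the late pupal libraries (000615F), a hindwing excess at both later stages (000122F), a 72 h peak (000044F) and a prepupal forewing excess (000045F).

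After pupation the members took different courses, within the 4-fold span that the choice allowed. The mean was higher at 72 h in 49 members and higher in the late pupa in 43. It was over 2-fold higher at 72 h in 28, within 2-fold in 50 and over 2-fold higher in the late pupa in 14, with a median late to 72 h ratio of 0.971. Without the 72 h libraries numbered 3 the mean was higher at 72 h in 51, and the 2-fold counts were 31, 45 and 16. The median ratio was not computed without them. The members with the lowest late to 72 h ratio were 000053F:1188913-1192462 at 0.269, 000010F:2183626-2191445 at 0.274 and 000255F:425991-436690 at 0.286. The second of these stood at 3623, 3946 and 1919 in hindwings and 3618, 2932 and 1778 in forewings at 72 h. In the late pupa it stood at 803, 768 and 929.6 in hindwings and 843, 637 and 897 in forewings, with no overlap between the stages.

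At the other end were 000615F:36199-38780, 000001F:4730156-4747825 and 000046F:1077950-1098896, the last with a ratio of 3.49. It had 2092, 1375 and 1115 normalized counts in hindwings and 979, 1018 and 1287 in forewings at 72 h. In the late pupa it had 5388, 4675 and 4065 in hindwings and 4793, 4451 and 4040.3 in forewings, all above the 72 h libraries. Nearest to an equal level in both stages were 000235F:49055-51650 at a ratio of 0.993, 000017F:2135390-2144258 at 0.985 and 000016F:1574422-1584794 at 0.980. For the last, hindwings had 397, 339 and 193 and forewings 311, 382 and 130.3 at 72 h. Late hindwings had 275, 261 and 244 and late forewings 264, 364 and 308. The spread was wider at 72 h in both wings.

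Before pupation the members differed too. The prepupal mean exceeded the larval mean in 68 members and lay below it in 24, by over 2-fold in 50 and 14. With TMM scaling of edgeR in place of the size factors these 2-fold counts were 45 and 15. Both scalings lower larval counts more than prepupal ones, with mean size factors of 2.21 and 0.75 at mean totals of 13281473 and 11631979. As a share of all counts the members did not rise, at means of 0.097% in the 5th instar and 0.074% in the prepupa. The counts of members that rose therefore depend on the scaling. A clear case of the first kind was 000140F:928469-935151, with 1.55, 2.76 and 1.70 normalized counts in larval and 46.3, 51.4 and 121 in prepupal hindwings. In forewings it had 0.721, 0.922 and 0.866 in the larva and 50.5, 72.4 and 123 in the prepupa, and its means at 72 h and in the late pupa were 506 and 335. Its prepupal libraries of both wings were all above its larval ones. Of the second kind was 000122F:1099471-1113386, with 229.8, 214 and 203 in larval and 52.3, 89.3 and 47.1 in prepupal hindwings. Larval forewings had 194, 167 and 161 and prepupal forewings 62.0, 67.5 and 41.1, and the later means were 837 and 1208. There the prepupa was a trough between a larval and a pupal level.

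The libraries of one group spread widely in many members at 72 h. This spread is not independent of the choice, which used the 72 h mean, and in some members 1 replicate number carries that mean. The median coefficient of variation (SD over mean, n = 3) of the members was 57.6% in hindwings and 51.6% in forewings at 72 h. Over the 5566 other models with later means of at least 100 it was 22.4% in hindwings and 20.1% in forewings. Over replicates 1 and 2 alone the members had 30.9% in hindwings and 24.8% in forewings, and those other models 15.6% in hindwings and 11.6% in forewings. The same over other pairs of replicates was not computed. In the late pupa the members had 19.4% in hindwings and 21.9% in forewings, and those other models 13.5% in hindwings and 12.5% in forewings.

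Most members were above every larval and prepupal library in all late pupal libraries, 91 of 92, but in all 6 libraries at 72 h only 69 were. In 13 members 4 or 5 of the 6 libraries were above, and in 10 members 2 or 3. Such counts follow from the choice, which used both later means. Shares over all models were not computed for each later stage alone. In 000220F:453276-453830, hindwings at 72 h had 4.72, 0 and 486 normalized counts and forewings 8.83, 17.1 and 930.2, so that both libraries numbered 3 were high and the other 4 within or near the larval and prepupal range. Late hindwings had 912, 587 and 892 and late forewings 766, 797 and 911. High only in number 3 was likewise 000279F:374029-378293, with 3.15, 4.81 and 622 in hindwings and 13.9, 36.9 and 1211 in forewings at 72 h. The reverse order was found in 000615F:36199-38780, at 5616, 399 and 7.22 in hindwings and 242, 25.2 and 3.98 in forewings, where number 1 was highest and number 3 lowest in both wings. In 000001F:4730156-4747825 only number 1 was above the earlier level, with 611, 2.40 and 3.10 in hindwings and 236, 4.50 and 3.98 in forewings. The coefficient of variation reached 171% in hindwings for this member, the highest of any later group.

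Members of the smallest spread were tight in late hindwings. There 000135F:378441-383297 had 2152, 2165 and 2189 (a coefficient of variation of 0.860%), 000016F:3405042-3428315 had 2681, 2689 and 2749.9 (1.39%) and 000140F:928469-935151 had 340.4, 351 and 353 (1.92%). The first of these was at 1476, 363 and 268 in hindwings and 2156, 849 and 159 in forewings at 72 h, where its libraries spread over an order of size. In this member tight late hindwings stood beside wide libraries at 72 h. Its late forewings were not tight, at 4433, 2859 and 3662 (21.5%).

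The libraries numbered 3 of both wings at 72 h differed from the others of that stage in many members. In 39 members (42.4%) both lay below the other 4 libraries of the stage, and in 21 (22.8%) both lay above. Over the other models with later means of at least 100 these shares were 25.4% and 23.3%. The median log2 ratio of number 3 to the mean of numbers 1 and 2 was −0.70 in hindwings and −0.58 in forewings over the members, and −0.02 in hindwings and −0.04 in forewings over the other models. The direction was the same in both wings in 75 members (81.5%), against 78.5% of the other models. These shares and ratios were not computed for numbers 1 and 2, so they cannot show whether those differ as much. Applied without these libraries, the choice gave 90 models, 76 of them among the 92. Without both libraries numbered 1 it gave 95, of which 80 were shared, and without both numbered 2 it gave 95, of which 87 were shared. In all, 60 members were chosen whichever number was left out and 32 depended on at least 1 of them.

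**Figure D3:**
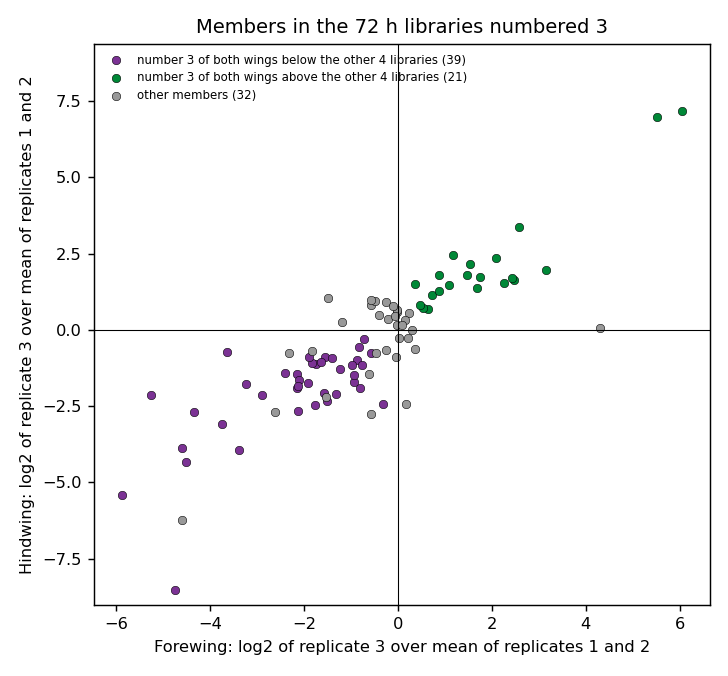
Each point is a member at 72 h: the log2 ratio of replicate 3 to the mean of replicates 1 and 2 (normalized count + 1) in forewings (horizontal) and hindwings (vertical). The 39 members whose libraries numbered 3 were both below the other 4 lie at lower left and the 21 with both above at upper right, so that both wings of a number deviated together.

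The wings were compared with edgeR's quasi-likelihood test over 13282 models, all 92 members among them, with Benjamini-Hochberg adjustment over all models, and a model was called at an adjusted p below 0.05. The log2 fold changes are hindwing over forewing and carry the SE. Because wings of one number varied together, a fit with a term for each stage and number (the replicate block) is given beside the fit without it. The medians of the members' log2 ratio of hindwing to forewing were 0.15, −0.10, 0.06 and 0.06 in stage order, with SDs over the replicate numbers of 0.07, 0.15, 0.11 and 0.08. Over all models tested they were 0.00, −0.02, 0.00 and 0.00. Without the libraries numbered 3 the members' median at 72 h was −0.02, within 1 SD of the value with them. In the 5th instar no member was called without the block, and 0.0376% of all models were. By edgeR, 4 members (4.35%) had an unadjusted p below 0.05, against 2.7% of all models. DESeq2's Wald test called 1 (1.09%), against 0.294% of all models. With the block 1 member was called, as were 0.986% of all models. This was 000141F:530457-540937, at 139.6, 192 and 173 normalized counts in larval hindwings and 347, 386 and 444 in larval forewings, without overlap (log2 −1.23 ± 0.19, edgeR adjusted p = 0.00758 with the block). That call ended without both larval libraries numbered 1 (adjusted p = 0.0687) or 3 (0.114), by edgeR with the block.

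In the prepupa 000045F:775108-787399, 000010F:2183626-2191445 and 000255F:425991-436690 were lower in hindwings, and 000019F:8067-22751 and 000010F:146921-162529 higher. Without the block 5 members (5.43%) were called, against 10.3% of all models. Of these, 2 were higher and 3 lower in hindwings. With the size factors in place of TMM 5 members (5.43%) were called as well, against 10.5% of all models. Of these 5, 1 was higher and 4 lower in hindwings, and 000010F:146921-162529 was not among them (edgeR adjusted p = 0.0527). With the block 24 (26.1%) were called, against 30.9%. Of these 24, 7 (7.61%) were higher in hindwings, against 14.6% of all models, and 17 (18.5%) were lower, against 16.3%. The member 000045F:775108-787399 stood at 68.7, 86.4 and 35.6 in prepupal hindwings and 337, 265 and 166 in prepupal forewings. The groups did not overlap (log2 −1.94 ± 0.35, edgeR adjusted p = 0.00126). Likewise without overlap, 000010F:2183626-2191445 had 58.3, 58.2 and 39.8 in hindwings and 227, 191 and 125 in forewings (log2 −1.73 ± 0.31, edgeR adjusted p = 0.00108). The model 000255F:425991-436690 had 31.4, 42.7 and 17.8 in hindwings and 110.2, 124 and 42.8 in forewings, nearly touching (log2 −1.52 ± 0.43, edgeR adjusted p = 0.0279). In these 3 members the forewing was the higher wing in the prepupa in each numbered pair. At 72 h none of the 3 was called in either fit.

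The opposite direction was found in 000019F:8067-22751, with 181, 209.6 and 108 in prepupal hindwings and 62.0, 85.9 and 63.3 in prepupal forewings, without overlap (log2 1.29 ± 0.27, edgeR adjusted p = 0.00334). It was found as well in 000010F:146921-162529, with 2306, 2919.6 and 2797 in hindwings and 1212, 1361 and 1191 in forewings, again without overlap (log2 1.16 ± 0.35, edgeR adjusted p = 0.0417). The unblocked call of 000010F:146921-162529 ended whichever prepupal library was left out (edgeR adjusted p from 0.0561 to 0.133), and that of 000255F:425991-436690 ended in 4 of 6 such fits (up to 0.141). With the block all 5 members were called, the highest edgeR adjusted p being 0.000387.

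At 72 h no member was called without the block, and 0.00753% of all models were. An unadjusted edgeR p below 0.05 was found in 8 members (8.70%), against 3.85% of all models. DESeq2 called 1 (1.09%), against 0.173%. Without the libraries numbered 3 the unblocked edgeR fit called 0 members, against 0.485% of all models. With the block 10 members (10.9%) were called, 7 higher and 3 lower in hindwings, against 2.7% of all models. In the same fit without the libraries numbered 3 the members called were 39 (42.4%), 18 higher and 21 lower in hindwings, against 8.69% of all models tested. That fit holds 2 libraries of each wing at this stage. Left out in turn instead, number 1 gave 5 members (5.43%, against 1.16% of all models) and number 2 gave 4 (4.35%, against 1.17%). By choice the members have means of at least 100 at 72 h and in the late pupa, while all models tested include weaker ones. Shares called that rest on these stages, here and below, are therefore not matched for level.

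The largest of these differences was that of 000615F:36199-38780, given above by library, at log2 4.16 ± 0.37, edgeR adjusted p = 0.000129 with the block. The hindwing far exceeded the forewing in the pairs numbered 1 and 2. In number 3 it had 7 reads against 4, too few to show a difference. The numbers themselves ranged from below the larval level to above the late pupal level. Without the block it was log2 4.49 ± 1.37, edgeR adjusted p = 0.813, and it was 1.10 without hindwing replicate 1 and 7.05 without forewing replicate 1. With the block and without both libraries numbered 1 it was 3.57. The member 000122F:1099471-1113386 had 1744, 1504 and 192 in hindwings and 888, 641 and 55.7 in forewings at 72 h, higher in the hindwing of each pair (log2 1.24 ± 0.14, edgeR adjusted p = 0.000608 with the block). A pair of adjacent models did likewise. In it 000073F:696224-724076 had 1077, 687 and 159 in hindwings and 422, 234 and 96.5 in forewings (blocked log2 1.22 ± 0.18, edgeR adjusted p = 0.00439). The other, 000073F:725145-728129, had 852, 526 and 107 in hindwings and 373, 184 and 62.7 in forewings (log2 1.17 ± 0.15, edgeR adjusted p = 0.00227). The blocked edgeR call of 000073F:696224-724076 ended without both libraries numbered 1 (adjusted p = 0.0512) or 2 (0.0504).

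Lower in hindwings at 72 h, with the block, were 000279F:374029-378293, 000459F:119425-149539 and 000459F:107694-111959. The second had 286, 447 and 896 in hindwings and 462, 745 and 1105 in forewings (log2 −0.59 ± 0.11, edgeR adjusted p = 0.0137). The third, 1 model away on the same contig, had 113, 168 and 396 in hindwings and 188, 263 and 484 in forewings (log2 −0.55 ± 0.12, edgeR adjusted p = 0.033). The forewing was the higher wing in each numbered pair of both. In the prepupa both were higher in hindwings with the block, 000459F:119425-149539 at log2 0.64 ± 0.14, edgeR adjusted p = 0.00363, and 000459F:107694-111959 at log2 0.85 ± 0.18, edgeR adjusted p = 0.00336. For 000279F:374029-378293 (log2 −1.20 ± 0.25, edgeR adjusted p = 0.022) the value without the block turned to 3.03 when forewing replicate 3 was left out and was −6.77 without hindwing replicate 3. All 3 blocked calls ended without both libraries numbered 1 (edgeR adjusted p from 0.0588 to 0.159) or 2 (0.0557 to 0.179).

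**Figure D4:**
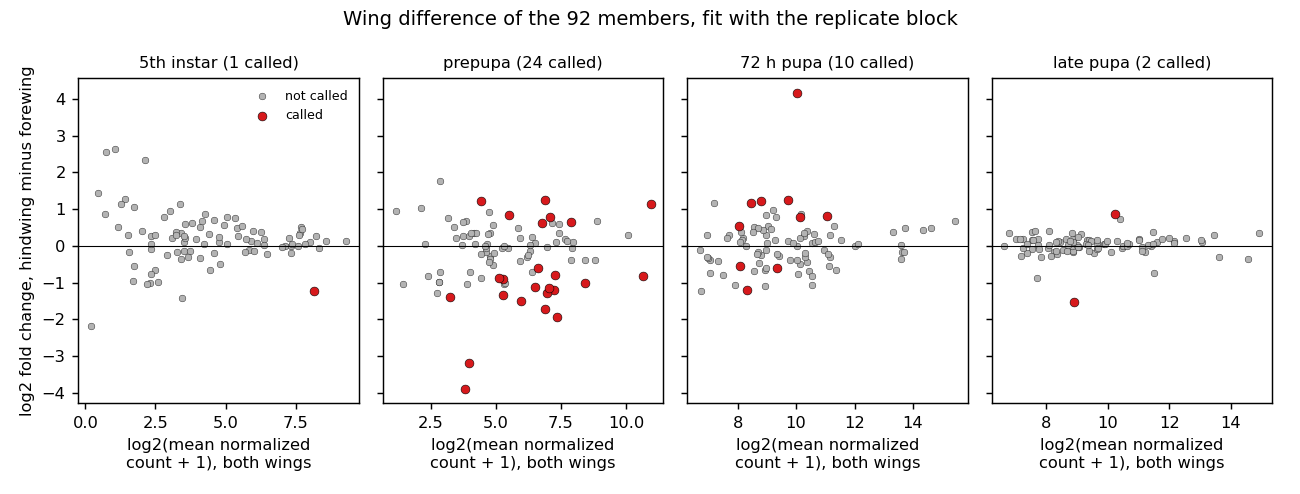
Log2 fold change of hindwing over forewing (vertical) against the mean level of both wings (horizontal, log2 of normalized count + 1) for the 92 members at each stage, from the fit with the replicate block. Red points are members called at an edgeR adjusted p below 0.05, of which the panels in stage order hold 1, 24, 10 and 2.

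In the late pupa no member was called without the block, and 0.0301% of all models were. By edgeR, 1 member (1.09%) had an unadjusted p below 0.05, against 1.91% of all models, and DESeq2 called 0, against 0.151%. With the block 2 members (2.17%) were called, against 0.459% of all models. These were 000122F:1099471-1113386 and 000017F:2135390-2144258. In 000122F:1099471-1113386 late hindwings had 2040.0, 1382 and 1308 and late forewings 941, 761 and 815, without overlap (log2 0.88 ± 0.13, edgeR adjusted p = 0.0114 with the block). In 000017F:2135390-2144258 late hindwings had 96.9, 290.5 and 369 and late forewings 299, 976 and 872, which overlap, with the forewing higher in each pair (log2 −1.53 ± 0.28, edgeR adjusted p = 0.0307 with the block). The blocked edgeR call of 000122F:1099471-1113386 ended without both late libraries numbered 1 (adjusted p = 0.176) or 2 (0.105), and that of 000017F:2135390-2144258 without those of any number (0.133 to 0.312). Over the mean of 72 h and the late pupa, no member was called without the block and 0.0527% of all models were. By edgeR, 4 members (4.35%) had an unadjusted p below 0.05, against 3.06% of all models, and DESeq2 called 0, against 0.166%. With the block 4 members (4.35%) were called, against 1.17%. Without the libraries numbered 3 these were 24 (26.1%), against 5.16%.

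Those 4 members were 000615F:36199-38780, 000122F:1099471-1113386 and 000198F:780645-797237, higher in hindwings, and 000017F:2135390-2144258, lower. For 000122F:1099471-1113386 the wing difference over both stages was log2 1.06 ± 0.09, edgeR adjusted p = 0.000515 with the block. It was called in each of 7 blocked fits, with all libraries or without both wings of any 1 number at either later stage. For 000017F:2135390-2144258 it was log2 −1.31 ± 0.20, edgeR adjusted p = 0.00845, also called in 7 of 7 but at up to 0.0493, near the limit. For 000198F:780645-797237 it was log2 0.44 ± 0.09, edgeR adjusted p = 0.0341, called in 2 of 7 (up to 0.16 in the other 5). At 72 h the last stood at 3979, 1915 and 2427 in hindwings and 1853, 1021 and 1670.3 in forewings, with the hindwing higher in each pair. In the late pupa it stood at 838, 846 and 1262 in hindwings and 707, 914 and 1225 in forewings, with the wings overlapping.

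Whether a wing difference changed from one stage to the next was tested as such. Between the prepupa and 72 h, 2 members (2.17%) were called without the block, against 4.04% of all models, and 30 (32.6%) with it, against 21.0%. Of these, 21 (22.8%) moved towards the hindwing, against 10.9% of all models, and 9 (9.78%) towards the forewing, against 10.1%. Without the libraries numbered 3 the blocked fit called 46 (50%), against 21.6%. The 2 members called in both fits were 000010F:2183626-2191445, with a change of log2 1.89 ± 0.42, edgeR adjusted p = 0.0137, and 000045F:775108-787399, with log2 1.81 ± 0.48, edgeR adjusted p = 0.037. At 72 h 000045F:775108-787399 had 1782, 2549.6 and 1485 in hindwings and 2126, 2708 and 1369.9 in forewings, with the wings overlapping. Its unblocked call ended in 8 of the 12 fits that left out 1 library (edgeR adjusted p up to 0.116), while that of 000010F:2183626-2191445 remained in all 12.

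Between 72 h and the late pupa no member was called without the block, nor was any other model (0.0%). By edgeR, 3 members (3.26%) had an unadjusted p below 0.05, against 2.19% of all models, and DESeq2 called 0, against 0.0301%. With the block 3 members (3.26%) were called, against 0.708%, and without the libraries numbered 3 there were 21 (22.8%), against 4.46%. The 3 were 000615F:36199-38780 at log2 −3.95 ± 0.43, edgeR adjusted p = 0.00212, 000073F:725145-728129 at log2 −1.44 ± 0.22, edgeR adjusted p = 0.0133 and 000073F:696224-724076 at log2 −1.42 ± 0.27, edgeR adjusted p = 0.0352. Leaving out both wings of numbers 1 or 2 at 72 h, or of any number in the late pupa, ended the calls of both 000073F models (edgeR adjusted p from 0.0526 to 0.182). In the late pupa 000073F:696224-724076 had 163, 150.4 and 146 in hindwings and 236, 136 and 166 in forewings. The wings overlapped there.

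Some members lay beside each other on the contigs. Of the 92, 15 (16.3%) had a member as the next model on their contig, and of the 5566 other models with later means of at least 100, 45 did (0.81%). The 15 formed 6 runs of 2 and 1 run of 3. Around their group means in the 12 later libraries, the 8 adjacent pairs correlated across libraries with a median r of 0.96 (range 0.19 to 0.98, n = 12 libraries, on log2(normalized count + 1)). The 24 pairs on one contig that are not adjacent had a median of 0.52, and the 4154 pairs on different contigs 0.05 (quartiles −0.48 and 0.55). The points share libraries and their depth, and wings of one number varied together, so the 12 libraries are not 12 independent points. The files do not say whether neighbouring models are separate genes or pieces of one, and reads shared by near-identical copies could not be marked.

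The run of 3 lay on contig 000044F, in 000044F:632838-633242, 000044F:641332-654513 and 000044F:700430-706399, with gaps of 8089 and 45916 bases. Their 72 h means were 1580.3, 2304 and 10154, and their late means 755, 1116 and 3139. The third had 16815, 14492 and 4751 in hindwings and 9950.1, 9745 and 5172 in forewings at 72 h, with number 3 lowest in both. In the prepupa it had 91.1, 139.7 and 34.5 in hindwings and 257, 269 and 97.6 in forewings (blocked log2 −1.21 ± 0.19, edgeR adjusted p = 0.000455). The first and the second, and the second and the third, correlated at r = 0.97. The models on either side, 000044F:623575-630250 and 000044F:706991-711722, had 72 h means of 56.9 and 7.98 and late means of 1.26 and 0.952. The run thus ended at models that were near silent in the late pupa.

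On contig 000016F, 000016F:3395818-3400241 and 000016F:3405042-3428315 adjoined at a gap of 4800 bases and correlated at r = 0.95. Their levels before pupation were unlike, with larval means of 0.651 and 628. Beyond a further pair of models, which had 72 h means of 0.4 and 0.712 and late means of 42.4 and 46.8, followed 000016F:3443191-3447446, the member with the widest step. On contig 000019F, 000019F:8067-22751 and 000019F:87656-91823 were 64904 bases apart, with ratios of 38.3 and 38.1, and correlated at r = 0.63. The adjacent pair on 000073F, 1068 bases apart, correlated at r = 0.98 and showed the same hindwing excess at 72 h. An exception was the pair on 000106F, at r = 0.19. Not adjacent but 1 model apart, the pairs on 000459F and 000022F correlated at r = 0.96 and 0.94.

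The median span of the members, from first to last base, was 9356 bases (quartiles 4775 and 14108), against 8014 bases (4362 and 12934) over the other models with later means of at least 100. The shortest was 000044F:632838-633242 at 405 bases and the longest 000135F:1230537-1276851 at 46315 bases. Spans of 6 members (6.52%) overlapped that of another model, against 21.1% of the other models. Applied to one wing at a time, the same choice gave 111 models in hindwings and 92 in forewings. Of the 92 members, 83 were in the hindwing list (90.2% of the members, 74.8% of the list) and 76 in the forewing list (82.6% of each), 68 were in both and 1 was in neither.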

How the data were processed

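The authors deposited one table of read counts per gene model, whole numbers without normalization, for 24 wing libraries. TopHat, bedtools and DESeq2 appear in the submitters' processing notes without versions or roles. Strand use is not given in the sources used here. Columns headed d3 were taken as 72 h, matched by wing and number. The 14 other libraries of the series, tied by their labels to annotation, were not used here. Members and tests were chosen with earlier results of these data known.

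Size factors came from the 10830 models with a count in every library. Wing tests used edgeR 4.0.16 in R 4.3.3: filterByExpr (minimum count 10, minimum total 15) left 13282 models, TMM factors scaled them, and glmQLFit took all 24 libraries, 1 mean for each group. A model was called at a Benjamini-Hochberg adjusted p below 0.05. SEs are the absolute log2 fold change over the square root of F. DESeq2 1.42.0 was an alternative. The code was tested on simulated counts.

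Wings of one stage and number correlated in all 12 pairs (deviations from group means, r from 0.517 to 0.765), and the block therefore holds 12 terms. Between numbers r was at most −0.138, but centring on means of 3 libraries pushes those values down where same-number ones are positive. Named members are the 8 of highest level, the 5 of highest and 3 of lowest ratio, those at the limits, 9 by late to 72 h ratio (3 highest, 3 lowest, 3 nearest to 1), up to 3 called members in each direction per wing comparison, the 3 longest runs, and the 3 of widest and 3 of narrowest spread. Others were named after their values were seen. Counts limit precision at low levels.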

Additional observations from a re-analysis of the deposited data

Results flagged for a closer look

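A wing difference that itself differed between stages marked 6 results. The change from the prepupa to 72 h passed the unblocked test of the difference in 000010F:2183626-2191445 (log2 1.89) and 000045F:775108-787399 (log2 1.81). With the replicate block it passed in 30 members (32.6%, against 21.0% of all models). The change from 72 h to the late pupa passed with the replicate block in 000615F:36199-38780 (log2 −3.95), 000073F:725145-728129 (log2 −1.44) and 000073F:696224-724076 (log2 −1.42). Groups of 3 libraries were not tested for outlying samples.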

How the results depend on the processing

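The number of members lay between 86 (TMM scaling) and 111 (hindwings alone), and between 87 and 99 when 1 library was left out; the median wing ratios moved by less than their SD. Most calls needed the replicate block. It gave 1, 24, 10 and 2 members in stage order, 4 over both later stages, 3 for the change from 72 h to the late pupa and 30 for that from the prepupa to 72 h, against 0, 5, 0, 0, 0, 0 and 2 without it. Without both 72 h libraries numbered 3 as well, an alternative chosen after seeing the data, the block gave 5, 34, 39, 3, 24, 21 and 46 in the same order, and 2.34%, 33.9%, 8.69%, 0.86%, 5.16%, 4.46% and 21.6% of all models. With both wings of 1 number left out, also chosen afterwards, it gave 0 to 1 member in the 5th instar (0.184% to 0.767% of all models), 18, 19 and 20 in the prepupa (22% to 25.2%), 4 to 5 at 72 h (1.16% to 1.17%) and 0 to 1 in the late pupa (0.0881% to 0.17%). It gave 3 to 4 over both later stages (0.367% to 0.867%), 1 for the later change (0.192% to 0.454%) and 23 to 25 for the earlier one (15.8% to 19.5%). Unblocked, leaving out 1 library gave 3 to 5 in the prepupa (6.29% to 8.42% of all models) and 0 to 2 at 72 h (0.00732% to 0.961%). For the change from the prepupa to 72 h it gave 1 to 11 (2.27% to 6.62%). DESeq2 called 1 in the 5th instar (0.294% of all models), 6 in the prepupa (14.2%), 1 at 72 h (0.173%) and 4 for that change (7.45%). For it, no filter gave 1 (1.97%), only the groups compared 0 (0.452%; 7 of 71 tested in the prepupa, against 12.2%), and leaving out both 72 h libraries numbered 3 gave 5 (5.78%; 9 in the prepupa, against 14%). The causes were not tested; the fits without a number hold fewer samples. One value reversed: 000279F:374029-378293 at 72 h, 3.03 without forewing replicate 3 (lowest value −6.77, without hindwing replicate 3). Each of 434 alternatives for single wing values was set against the fit with all libraries and without the block. Of these, 347 kept direction and side of the threshold, 24 lost the call and 62 gained it in the same direction. Many of these values were called only with the block, so keeping the side often meant staying uncalled. The 347 therefore do not measure how stable the calls are.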
